A study of Mus musculus with 4 samples.

Results

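The genes described here are 42 genes of the p53 response, of apoptosis and of cyclin-dependent kinase (CDK) inhibition, chosen by name from what their products are known to do, out of 20018 named genes on the array. Their RNA was read from mouse kidneys dissected at E13.5, with tamoxifen treatment at E12.5, 24 hours earlier. Arrays were made of 2 control and 2 Sall1 knockout samples, whose strain is a hybrid of 129 and C57BL/6. Sall1 is a zinc finger protein that regulates transcription in the early kidney, and CreER is a Cre recombinase that becomes active when tamoxifen binds it. Control titles carry the word flox and knockout titles carry CreER, while the shared protocol describes tamoxifen treatment and names Sall1CreER for all samples. The labels thus do not settle whether the controls carry CreER. If they do not, an effect of CreER itself and the loss of Sall1 cannot be told apart. Nothing in the labels says whether a sample was an embryo, a litter or a pool, so p-values measure only the spread between these samples, which may be technical. In whole kidneys, a different number of cells of a type and a different amount of RNA per cell cannot be told apart.

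The p53 protein is a transcription factor that accumulates after DNA damage and other stress and is held low by Mdm2 and Mdm4. It switches on Cdkn1a, which stops CDKs and with them the cell cycle, and a set of genes for repair, growth control and death. Mitochondrial apoptosis is set by the BCL2 family. Prosurvival members hold Bax and Bak1 in check, BH3-only proteins oppose the prosurvival members, and open mitochondria then release the factors that activate caspases through Apaf1. In the embryonic kidney, nephron progenitors are known to depend on a restrained p53 response.

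Signals are given as log2 of the array signal divided by the 75th percentile of that array, so that 0 is the level of a fairly bright spot, and a difference is the knockout mean minus the control mean on this log2 scale. Signals of different probes are not compared with each other. Of the 42 genes, 39 were tested, and 38 of these were well above background on all 4 arrays. The remaining 3, Cdkn2a, Cdkn2b and Eda2r, did not stand well above background on any of the arrays. The check of the labels was Sall1 itself, measured by 1 probe at 1.79 and 1.81 in the controls and 1.03 and 1.07 in the knockouts. This was 1.68-fold lower (-0.75 ± 0.056, SE, n = 2 per group), with an adjusted p of 0.126 in limma. With a prior variance that follows signal and is robust to outliers, the adjusted p of Sall1 in limma was 0.00143. No label says whether the Sall1 probe falls within the deleted stretch. Each array held 62976 spots, of which 60.6% to 64.2% were well above background and none saturated.

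No gene of the set passed the test after adjustment. Without adjustment, the p53 targets Cdkn1a, Ccng1, Trp53inp1, Sesn1 and Pmaip1, the BH3-only gene Bmf and the CDK inhibitor Cdkn2c had higher values in both knockout arrays, and the prosurvival gene Bcl2 had lower values, each at p under 0.05 in limma. Mdm2, the effectors Bax and Bak1 and the 4 genes of the apoptosome group differed by at most 0.063 on the log2 scale. The differences ran from -0.41 for Bcl2 to 0.91 for Pmaip1, with 28 above and 11 below 0, beside 46.4% of all genes tested above 0. The median of the 39 was 0.062, against -0.013 over all 25076 genes and unnamed sequences tested. Shares of all genes tested, here and below, are over these 25076, of which 9993 were unnamed sequences. None of the 39 had an adjusted p under 0.05 in limma with its default prior, and neither did any other gene tested (0%). The smallest adjusted p among the 39 was 0.203 in limma, and the smallest over all genes was 0.0724.

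At an unadjusted p under 0.05 in limma, 7 of the 39 genes (17.9%) were higher, beside 6.78% of all genes tested, and 1 (2.56%) was lower, beside 5.94%. The 7 were Cdkn1a, Cdkn2c, Ccng1, Trp53inp1, Sesn1, Pmaip1 and Bmf, and the 1 was Bcl2. With a prior variance that follows signal and is robust to outliers, 3 genes (Cdkn1a, Ccng1 and Bmf, 7.69%) were higher at an adjusted p under 0.05 in limma, beside 0.542% of all genes, and Bcl2 was lower, beside 0.654%. Both knockout arrays lay above both control arrays for 15 of 39 genes (38.5%, beside 21.5% of all genes) and below them for 5 (12.8%, beside 27.7%). With arrays centred on their medians, the shares of all genes were 15.7% and 35.2%, and 8 of the 39 genes lay below. For 17 of the 39 genes (43.6%) the difference was larger than the gap between the replicates of either group, beside 35.8% of all genes. The genes' median depended on both control replicates, being 0.016 without control replicate 1 and 0.11 without control replicate 2. With 1 array left out, fewer arrays have to be apart, and the counts without overlap went up for all genes too. Without control replicate 1, 13 of the 39 genes (33.3%) lay below, beside 42.3% of all genes. Without control replicate 2, 29 (74.4%) lay above, beside 35.4%. Without knockout replicate 2, 9 (23.1%) lay below, beside 42.3%.

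**Figure D1:**
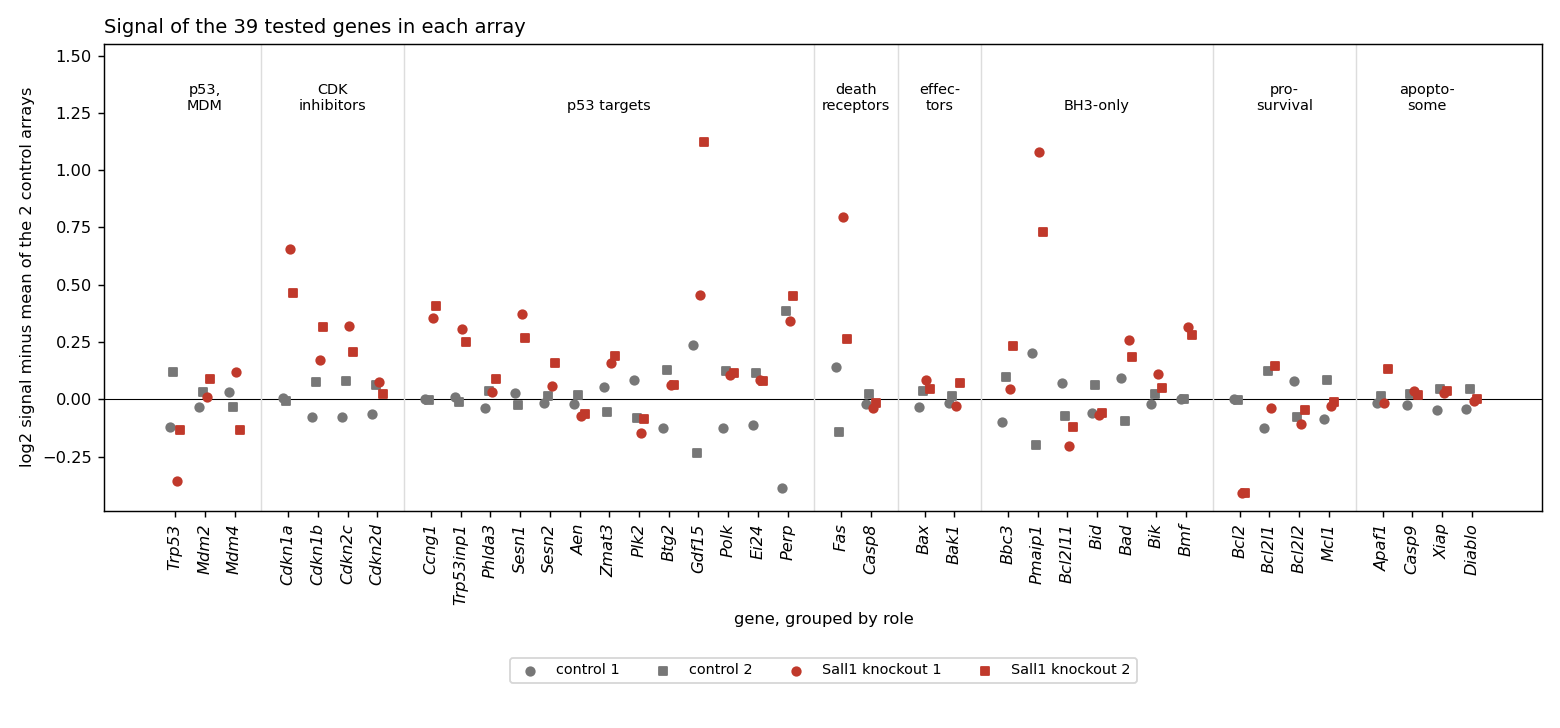
Log2 signal of the 39 tested genes in each array minus the mean of the 2 control arrays (vertical axis), with genes grouped by role along the horizontal axis. Grey symbols are control and red symbols knockout arrays. The knockout points of Pmaip1, Cdkn1a, Ccng1, Sesn1, Trp53inp1 and Bmf sit above their control points, those of Bcl2 sit below at -0.41, and those of Bax, Bak1, Apaf1, Casp9, Xiap and Diablo lie near 0.

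Among p53 and its regulators, no gene was higher at an unadjusted p under 0.05 in limma, and none was lower. Trp53, which encodes p53, was at -0.24 and -0.0019 in the controls and -0.48 and -0.25 in the knockouts. The knockout arrays were the lower ones, with the higher of them beside the lower control. The difference was -0.25 ± 0.13, with an adjusted p of 0.491 in limma. It was -0.36 without control replicate 1 or knockout replicate 2, and -0.13 without either of the others. Mdm2, an E3 ligase that is both an inhibitor of p53 and a product of its activity, was at 3.51 and 3.58 in the controls and 3.56 and 3.63 in the knockouts. These ranges overlapped, and the difference of 0.049 had a 95% interval from -0.14 to 0.23. Mdm4, the related inhibitor of p53, differed by -0.0065 with an interval from -0.31 to 0.30. Its second probe differed by 0.14, with both knockout arrays above both controls.

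The CDK inhibitors were led by Cdkn1a, the p21 inhibitor that is the best known target of p53. Cdkn1a was at -0.80 and -0.81 in the controls and -0.15 and -0.34 in the knockouts. Both knockout arrays lay well above the nearly equal controls. The signal was 1.47-fold higher (0.56 ± 0.088), with an unadjusted p of 0.00372 and an adjusted p of 0.235 in limma, and an adjusted p of 0.0338 with the trended robust prior. A second Cdkn1a probe stood above background on only 1 of the 4 arrays and is not used. The difference of the first probe ranged from 0.46 to 0.65 when each array was left out in turn.

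The other CDK inhibitors of the Cip/Kip and Ink4 families differed less. Cdkn2c, the p18 inhibitor of Cdk4 and Cdk6, was at -2.80 and -2.64 in the controls and -2.40 and -2.51 in the knockouts, again without overlap. It differed by 0.26 ± 0.088, with an unadjusted p of 0.0436 and an adjusted p of 0.382 in limma. Cdkn1b, the p27 inhibitor that holds resting cells out of the cycle, was at 1.53 and 1.68 in the controls and 1.78 and 1.92 in the knockouts. The arrays did not overlap, but the interval of the difference of 0.25 ran from -0.020 to 0.51, with an adjusted p of 0.415 in limma. Cdkn2d, the p19 inhibitor, overlapped between groups and differed by 0.048. Cdkn2a, which encodes p16 and the p53 activator p19Arf, was at -7.17, -7.08, -7.08 and -6.72 over the control and then the knockout arrays. None of these signals was well above background, and the same held for the neighbouring Cdkn2b, so no fold is given for either gene.

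Promoter sequence was searched for the p53 response element, a 20-base consensus of 2 copies of a 10-base sequence lying back to back, with the C and the G of the core of each copy fixed (4 bases in all). The window ran from 250 bases before to 50 bases after each RefSeq start of build GRCm38.p6, and because the consensus is its own reverse complement, a search of 1 strand covers both. Of the 37 genes with a promoter in the table, Cdkn1a and Ccng1 held a match with 1 mismatch. A match with at most 1 mismatch was held by 0.0814% of 27025 genes with a promoter and by 0.067% of all 32851 promoters. The matches of Cdkn1a and Ccng1 are shown because both genes were also among those with the smallest p, with the match in capitals. The Cdkn1a stretch lies at chr17:29090888-29090978 on the plus strand, with the match at -51 to -32 from a RefSeq start of the gene. The Ccng1 stretch lies at chr11:40755422-40755521 on the minus strand, with the match at -195 to -176. Promoters were joined to genes by name, and whether the probes used read transcripts from these starts was not checked.
Cdkn1a: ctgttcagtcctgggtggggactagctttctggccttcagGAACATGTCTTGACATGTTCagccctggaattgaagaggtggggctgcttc
Ccng1: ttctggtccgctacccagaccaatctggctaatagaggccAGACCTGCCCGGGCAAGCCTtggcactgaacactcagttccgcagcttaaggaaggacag

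With up to 3 mismatches, 7 of the 37 genes held a match, beside 1.63% of 27025 genes with a promoter. The set was chosen for known roles that include the p53 response, so a larger share in it says nothing about these arrays. The 5 further genes were Sesn1, Bbc3, Trp53, Cdkn1b and Aen. The matches of Sesn1 and Bbc3 are shown to set a gene that was higher in both knockout arrays beside one whose arrays overlapped, at chr10:41887266-41887285 and chr7:16309486-16309505, both on the plus strand.
Sesn1: AAGCTTGTTTTTGCTGGCCT
Bbc3: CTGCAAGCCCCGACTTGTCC

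These matches are letters in a window and no binding was measured. Genes with a match did not all differ alike. Cdkn1a, Ccng1, Sesn1 and Cdkn1b were higher in both knockout arrays, Bbc3 overlapped, and Aen and Trp53 were lower in both. Zmat3, Trp53inp1, Perp, Pmaip1 and Bik had no promoter in the table.

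The 13 p53 targets for cell cycle, repair and stress had a median difference of 0.11, and 11 of them were above 0, beside 46.4% of all genes. In 6 (46.2%) both knockout arrays lay above both controls and in 2 (15.4%) below, beside 21.5% and 27.7% of all genes. At an unadjusted p under 0.05 in limma, 3 (23.1%) were higher, beside 6.78%, and none was lower. Ccng1, which encodes cyclin G1, was at 0.18 and 0.18 in the controls and 0.53 and 0.59 in the knockouts. The control arrays were alike and both knockout arrays were higher by more than the gap within either group. Ccng1 was 1.30-fold higher (0.38 ± 0.058), with an unadjusted p of 0.00323 and an adjusted p of 0.223 in limma, and an adjusted p of 0.0400 with the trended robust prior.

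Trp53inp1, a stress protein that promotes p53 activity and autophagy, was at 0.65 and 0.63 in the controls and 0.95 and 0.89 in the knockouts. It differed by 0.28 ± 0.058, with an unadjusted p of 0.0101 and an adjusted p of 0.288 in limma. The groups did not overlap for this probe or for a second one, which differed by 0.19. Sesn1, which encodes a sestrin that restrains mTORC1 signalling, was at 1.17 and 1.11 in the controls and 1.51 and 1.41 in the knockouts. Both knockout arrays were again the higher ones. Sesn1 differed by 0.32 ± 0.069, with an unadjusted p of 0.0111 and an adjusted p of 0.294 in limma. With the trended robust prior, neither Trp53inp1 (0.0799) nor Sesn1 (0.0641) reached an adjusted p under 0.05 in limma.

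The remaining 10 targets did not reach an unadjusted p under 0.05 in limma. Zmat3, a zinc finger RNA-binding protein, and Sesn2, the second sestrin, were higher in both knockout arrays by 0.17 and 0.11. Gdf15, a secreted stress cytokine, differed by 0.79 ± 0.30, but its signal was faint and stood well above background on only 1 of the 2 control arrays. The controls read -4.85 and -5.32 and the knockouts -4.63 and -3.96, and the difference ranged from 0.46 to 1.12 as each array was left out. With normexp background correction it was 0.23. Perp, a membrane protein of desmosomes and of p53-dependent death, was at -2.31 and -1.54 in the controls and -1.59 and -1.48 in the knockouts. Its difference of 0.40 rested on control replicate 1, being 0.0096 without it and 0.78 without control replicate 2. The differences of Phlda3, an inhibitor of Akt, Btg2, an antiproliferative factor, Polk, a DNA polymerase for damaged templates, and Ei24, a membrane protein of the endoplasmic reticulum, were between 0.061 and 0.11 with overlapping arrays. Aen, a nuclease, and Plk2, a polo-like kinase, were lower in both knockout arrays by small amounts (-0.068 and -0.12), and the Plk2 difference was -0.034 without control replicate 1.

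**Figure D2:**
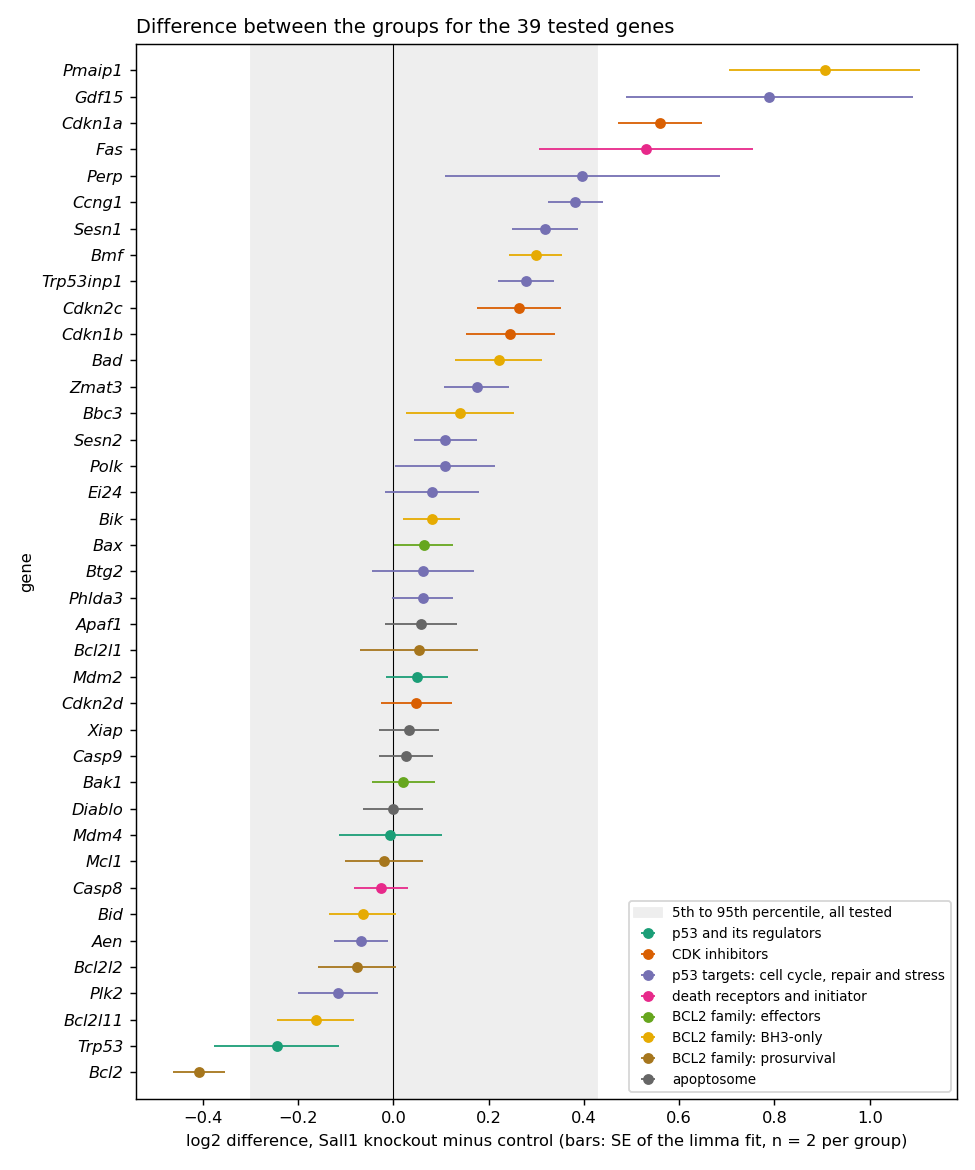
Log2 difference, knockout minus control, of each of the 39 tested genes with its standard error from limma (2 arrays per group), grouped by role. The largest positive differences are those of Pmaip1 (0.91), Gdf15 (0.79), Cdkn1a (0.56) and Fas (0.53), of which Gdf15 and Fas have wide errors and Gdf15 stood above background on only 1 control array, and the largest negative one is that of Bcl2 (-0.41).

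The BH3-only group held the largest difference. Pmaip1, which encodes Noxa, a p53-induced antagonist of Mcl1, was at -2.47 and -2.87 in the controls and -1.59 and -1.94 in the knockouts. The lower knockout array was above the higher control array. Pmaip1 was 1.87-fold higher (0.91 ± 0.20), with an unadjusted p of 0.0121 and an adjusted p of 0.299 in limma, and an adjusted p of 0.0794 with the trended robust prior. Its difference ranged from 0.71 to 1.11 as each array was left out, and it was 0.58 with normexp background correction.

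Bmf, a BH3-only protein tied to the cytoskeleton, was at 2.07 and 2.07 in the controls and 2.38 and 2.35 in the knockouts. Replicates were close together in both groups and the groups stood apart. Bmf was 1.23-fold higher (0.30 ± 0.056), with an unadjusted p of 0.00669 and an adjusted p of 0.269 in limma, and an adjusted p of 0.0438 with the trended robust prior. Bbc3, which encodes Puma, the other main BH3-only target of p53, was at 1.19 and 1.39 in the controls and 1.33 and 1.52 in the knockouts. These overlapped, and the difference of 0.14 had an interval from -0.18 to 0.46. It was 0.041 without control replicate 1 and 0.046 without knockout replicate 2. Bcl2l11, which encodes Bim, was at -1.62 and -1.77 in the controls and -1.90 and -1.82 in the knockouts, a difference of -0.16 ± 0.081 with an adjusted p of 0.477 in limma. The Bim arrays did not overlap, with the knockout the lower. The Bim difference was -0.039 with normexp background correction and -0.091 without control replicate 1. Bad differed by 0.22 without overlap, but its second probe differed by -0.088, also without overlap. Bik and Bid differed by 0.080 and -0.065.

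Bcl2, the founding prosurvival member, was at 1.96 and 1.95 in the controls and 1.55 and 1.55 in the knockouts. Replicates differed by far less than the groups did, and Bcl2 had the smallest p of the 39 genes. It was 1.33-fold lower (-0.41 ± 0.054, 95% interval from -0.56 to -0.25), with an unadjusted p of 0.00203 and an adjusted p of 0.203 in limma, and an adjusted p of 0.0151 with the trended robust prior. The other 3 prosurvival genes overlapped between groups in the probe used for each. Mcl1, which Noxa binds, was at 3.76 and 3.93 in the controls and 3.82 and 3.83 in the knockouts, and its difference of -0.020 had an interval from -0.25 to 0.21. Bcl2l1, which encodes Bcl-xL, and Bcl2l2, which encodes Bcl-w, differed by 0.054 and -0.076. A second Bcl2l2 probe differed by -0.15, with both knockout arrays below both controls.

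The effectors that open the mitochondrial membrane differed little. Bax, also a p53 target, was at 3.38 and 3.45 in the controls and 3.50 and 3.46 in the knockouts. The groups were separated by less than the gap within either one, and the difference of 0.063 had an interval from -0.11 to 0.24. Bak1 differed by 0.021. In the apoptosome group, Apaf1, Casp9, the caspase inhibitor Xiap and its antagonist Diablo all overlapped between groups, with differences from -0.0014 to 0.058. Among the death receptors and their initiator, Fas, a receptor that p53 can induce, was faint at -4.21 and -4.49 in the controls and -3.55 and -4.08 in the knockouts. Both knockout arrays were higher, and the difference of 0.53 ± 0.22 had an adjusted p of 0.441 in limma. It was 0.26 without knockout replicate 1, 0.80 without knockout replicate 2 and 0.22 with normexp background correction. Casp8, the initiator caspase below Fas, differed by -0.025.

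**Figure D3:**
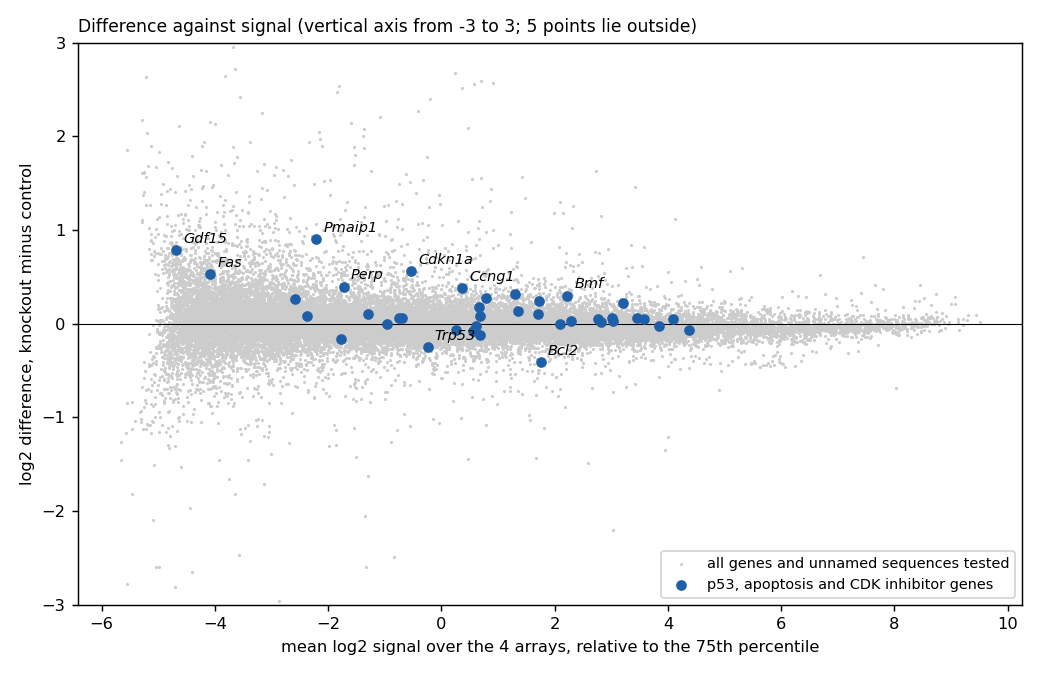
Log2 difference, knockout minus control (vertical axis), against the mean log2 signal of the 4 arrays relative to the 75th percentile (horizontal axis) for all 25076 genes and unnamed sequences tested (grey), with the 39 genes in blue. The vertical axis runs from -3 to 3 and leaves out 5 points. Gdf15 and Fas lie at low signal, where grey points scatter widely, while Cdkn1a, Ccng1, Bmf and Bcl2 lie where the scatter is narrower.

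Further genes of the same pathways were read from the same comparison. Of 30 other p53 pathway genes, 29 were tested. At an unadjusted p under 0.05 in limma, none was higher, beside 6.78% of all genes, and 3 (10.3%) were lower, beside 5.94%. Their median difference was -0.051. In 3 (10.3%) both knockout arrays lay above both controls and in 14 (48.3%) below, beside 21.5% and 27.7% of all genes. The 3 lower genes were Tob1, an antiproliferative protein (-0.37), Sulf2, a heparan sulfate sulfatase (-0.27), and Chek2, a kinase of the DNA damage checkpoint (-0.31). Of 30 other apoptosis genes, 28 were tested. None reached an unadjusted p under 0.05 in limma, beside 6.78% of all genes higher and 5.94% lower. Their median was -0.020, with 4 (14.3%) above and 9 (32.1%) below without overlap, beside 21.5% and 27.7% of all genes. Parp1 (-0.14), a DNA repair enzyme, the TNF receptor Tnfrsf1a (0.15) and the initiator caspase Casp2 (-0.12) had the smallest p.

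Of 22 genes of RB and of G1, the cell cycle phase that Cdkn1a and Cdkn2c restrain, 21 were tested. At an unadjusted p under 0.05 in limma, 1 (4.76%) was higher, beside 6.78% of all genes, and 2 (9.52%) were lower, beside 5.94%. Their median was -0.028. Without overlap, 3 (14.3%) lay above and 9 (42.9%) below, beside 21.5% and 27.7%. The higher gene was Rbl2, the RB relative p130 (0.21). The lower genes were E2f5, an E2F factor (-0.20), and Cdk6. Cdk6 did not stand well above background in either knockout sample and was tested because both control arrays did. Between the group means of these arrays, its signal was lower by a bound of 1.32-fold, which leaves out the spread between arrays. For that bound, the lowest signal well above background stood in for the probe where it was higher than the probe's own signal. With the signals as read, the difference of Cdk6 was -0.62. Its interval ran from -1.10 to -0.14, with an adjusted p of 0.340 in limma. None of the genes tested in these 3 lists reached an adjusted p under 0.05 in limma with either prior.

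Markers of kidney and of neighbouring tissues were read on the same arrays, as sums of the linear signal over each list, in multiples of the 75th percentile. For comparison with the single markers, 21.5% of all genes tested were higher in both knockout arrays and 27.7% were lower in both. All 7 nephron progenitor markers were above background, and their sum was 122 and 121 in the controls and 96.9 and 99.1 in the knockouts. Of these markers, Six2, Cited1 and Osr1 were lower in both knockout arrays, Pax2 and Wt1 were higher in both, and Eya1 and Meox1 overlapped. The macrophage sum was 6.18 and 5.74 in the controls and 8.87 and 7.61 in the knockouts, and all 7 of its markers were higher in both knockout arrays. The liver sum was 10.8 and 15.3 in the controls and 31.8 and 27.5 in the knockouts, with all 6 markers that had a probe higher in both. The skeletal muscle sum was 21.1 and 7.49 in the controls and 38.8 and 25.2 in the knockouts. Of its 7 markers, 5 were higher in both knockout arrays and Ckm was below background on all 4 arrays. The endothelial sum was 22.6 and 23.3 in the controls and 25.2 and 26.4 in the knockouts, with 4 of 6 markers higher in both. The sum for adrenal and gonad was 7.70 and 8.94 in the controls and 9.08 and 12.4 in the knockouts, with Cyp11a1 below background on all 4 arrays. Most of this sum was Cyp17a1 (0.41), which was higher in both knockout arrays. Nr5a1 (-0.34) and Star (-0.19) had lower knockout means and overlapped. The sum for neural crest and nerve was 1.83 and 2.12 in the controls and 1.68 and 1.65 in the knockouts. The erythroid sum overlapped between groups (585 and 909 against 557 and 981), as did those of ureteric bud and stroma. Of the bud markers, Ret (-0.28) and Wnt11 (-0.26) were lower in both knockout arrays and Calb1 (0.33) was higher in both. Gata3 and Wnt9b overlapped. Of the stroma markers, Foxd1 (-0.17) and Pdgfra (-0.14) were lower in both, and Tcf21 and Meis1 overlapped.

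The sums of 7 lists thus differed with the group without overlap. So did Cdkn1a, Ccng1, Sesn1, Trp53inp1, Pmaip1, Bmf and Bcl2, which were picked for a small p. Of all genes tested, 21.5% lay above and 27.7% below without overlap. The part of the marker tissues in the differences of the 7 genes was not tested. As a description, replicate 2 of the controls differed from replicate 1 by -1.50 in log2 muscle sum, 0.51 in log2 liver sum and -0.11 in log2 macrophage sum. On the same arrays, the gap between the controls was 0.40 for Pmaip1, 0.053 for Sesn1, 0.024 for Trp53inp1, 0.010 for Cdkn1a and at most 0.0050 for Ccng1, Bmf and Bcl2. Replicate 2 of the knockouts differed from replicate 1 by -0.62 in log2 muscle sum, -0.20 in log2 liver sum and -0.22 in log2 macrophage sum. The gap between the knockouts was 0.35 for Pmaip1, 0.19 for Cdkn1a, 0.11 for Sesn1 and 0.056 for Trp53inp1. It was 0.055 for Ccng1, 0.036 for Bmf and 0.00099 for Bcl2.

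**Figure D4:**
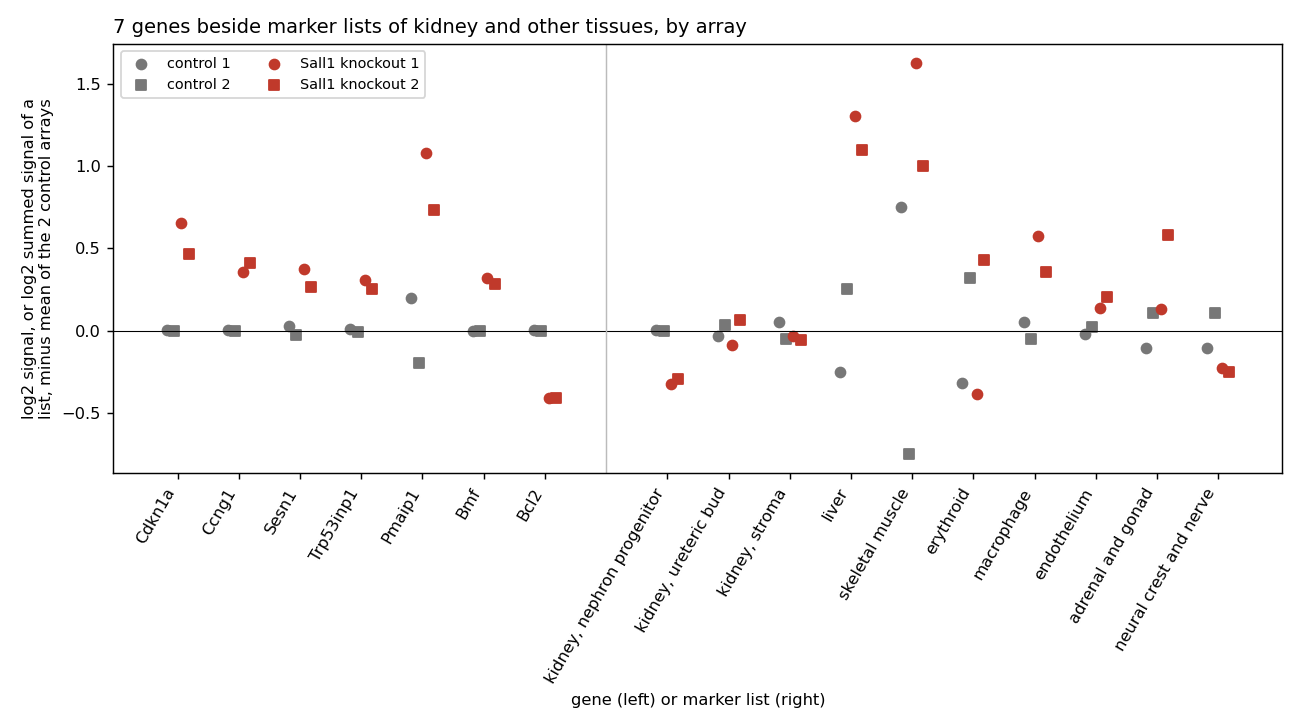
Log2 signal of 7 genes (left) and log2 summed signal of 10 marker lists (right) in each array, minus the mean of the 2 control arrays. Liver, skeletal muscle, macrophage, endothelium, and adrenal and gonad sums are higher in both knockout arrays, and those of nephron progenitor and of neural crest and nerve are lower. The control arrays are far apart for muscle, liver and erythroid sums and, among the genes, for Pmaip1, and closer together for the macrophage sum and the other 6 genes. Among the genes, the knockout arrays are furthest apart for Pmaip1 (0.35) and Cdkn1a (0.19).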

How the data were processed

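Total RNA of the kidneys was labelled with Cy3 and hybridised to 4 one-colour Agilent arrays on 1 slide, from 0.25 ug of RNA per the labels. The deposited scanner files give a processed intensity, background-corrected by Agilent Feature Extraction 10.7.3.1 and not scaled between arrays, per the file headers. Spots with an outlier mark and control spots were dropped, spots of a probe were averaged, and each array was divided by its 75th percentile and put on log2. A probe was tested where both arrays of either group had it well above background, and the probe with the highest mean stood for its gene. The comparison used limma 3.58.1 under R 4.3.3 (two-sided, 2 residual and 1.79 prior degrees of freedom, Benjamini-Hochberg over 25076 genes and unnamed sequences). The deposited value table, the same intensity within 1%, was an alternative. Promoters came from RefSeq.

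The 42 genes and all lists were chosen with earlier results of these data known. Named array by array were fixed regulators and every gene of the 42 with an unadjusted p under 0.05 in limma or an adjusted p under 0.05 with the trended robust prior, plus Gdf15, Perp and Fas, added after their values were seen for their wide errors. In each further list, up to 3 genes with the smallest p were named.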

Additional observations from a re-analysis of the deposited data

How the results depend on the processing

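With 2 arrays a group, precision was limited by their number, and faint genes such as Gdf15 and Fas lay close to background. No paired analysis was possible because the labels give the groups no shared numbers. Of the 39 genes, 26 kept their direction in every alternative run on them, which were 14, or 13 for Gdf15. The called genes were 4 with the trended robust prior and 0 with the others. With normexp background correction 11 genes (28.2%, beside 9.39% of all genes) were higher at an unadjusted p under 0.05, and with median centring 8 (20.5%, beside 35.2%) lay below without overlap. Leaving out each array in turn gave 15 to 29 genes above and 6 to 13 below without overlap, beside 32.6% to 35.5% and 38.6% to 42.3% of all genes, and a median of 0.016 to 0.11. The causes were not tested.

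The remaining 13 genes reversed in at least 1 alternative, with main differences from -0.076 (Bcl2l2) to 0.11 (Polk). Mdm4 was at 0.0041 with normexp and 0.065 as a mean over probes. With median centring Bak1 was at -0.016, Casp9 at -0.011 and Xiap at -0.0044. With quantile normalization Mcl1 was at 0.019 and Diablo at 0.024, and Diablo was at 0.013 as a mean over probes and 0.0048 in the value table. Without each array in turn, the differences ran from -0.13 to 0.12 (Mdm4), -0.015 to 0.11 (Cdkn2d), -0.066 to 0.19 (Btg2), -0.015 to 0.23 (Polk), -0.033 to 0.19 (Ei24), -0.031 to 0.072 (Bak1), -0.070 to 0.18 (Bcl2l1), -0.15 to 0.0027 (Bcl2l2), -0.11 to 0.065 (Mcl1), -0.014 to 0.13 (Apaf1), -0.014 to 0.079 (Xiap) and -0.045 to 0.042 (Diablo).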
